A study of Mus musculus with 10 samples.

Results

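The genes described here encode the proteins of the mitochondrial ribosome. The rule reads the symbol alone and takes every gene whose name is Mrpl or Mrps followed by a number and at most 1 letter. It uses no measured value, although the family itself was picked with results of these data known. The table held 77 such genes among 47702. By symbol 48 are Mrpl and 29 are Mrps, but Mrps18a and Mrps30 belong to the large subunit, which makes 50 proteins of the large and 26 of the small subunit. The remaining gene, Mrps36, carries a ribosomal name but encodes a subunit of the 2-oxoglutarate dehydrogenase complex. The comparison was between livers of female mice lacking Etnppl in the whole body (KO) and livers of wild-type (WT) females, with 5 poly-A RNA libraries in each group. Both groups ate chow for 20 weeks. The enzyme made from Etnppl, a phospho-lyase, breaks down phosphoethanolamine. The sources used here give neither the knockout allele nor the strain or the age at harvest.

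The mitochondrial ribosome translates the few messenger RNAs transcribed from mitochondrial DNA, all of which encode subunits of the respiratory chain and ATP synthase. Its ribosomal RNAs come from the mitochondrial genome, whereas its proteins are encoded in the nucleus, translated in the cytosol and imported. Many of these proteins have a bacterial counterpart, and the others exist only in mitochondria. Liver is rich in mitochondria, and its hepatocytes make most of the RNA of the tissue. In whole tissue, a lower value can mean fewer cells of a type or less RNA per cell, and these cannot be told apart.

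Promoters of such genes are known for binding sites of NRF1, of ETS factors such as GABP, and of YY1, so the RefSeq windows on GRCm38.p6 were read for the letters of these sites. A window ran from 250 bases before to 50 bases after a gene's start, and 68 of the 77 genes had at least 1. Genes with no entry were Mrpl4, Mrpl13, Mrpl15, Mrpl19, Mrpl38, Mrpl54, Mrps28, Mrps34 and Mrps35. The stretches of 30 bases printed here belong to the only genes with a window that passed the test between genotypes, Mrps18b and Mrpl42, and to Mrpl17, Mrpl22 and Mrpl52, whose levels are described later. They lie at chr17:35916394-35916423 and chr17:35916645-35916674 (Mrps18b, minus strand), chr10:95501904-95501933 (Mrpl42, minus), chr7:105811080-105811109 (Mrpl17, minus), chr11:58171620-58171649 (Mrpl22, plus) and chr14:54426851-54426880 (Mrpl52, plus). Capitals mark the NRF1 letters GCATGCGC or their reverse complement, except in Mrpl42, where they mark the YY1 letters AAGATGGC, and in Mrpl52, where they mark the reverse complement of the ETS letters CCGGAAG.
Mrps18b, after the RefSeq start: gcgtgtcccgaGCATGCGCagtcgctcttc
Mrps18b, upstream: aacggcccgacGCATGCGCactgggagcac
Mrpl42: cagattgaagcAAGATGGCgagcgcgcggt
Mrpl17: gccgagttactGCGCATGCgtcctctgaga
Mrpl22: ggcctcggactGCGCATGCgtatagtcagc
Mrpl52: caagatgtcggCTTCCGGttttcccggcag

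On either strand, the NRF1 letters stood in 8 of the 68 genes (11.8%), against 3.05% of the 27025 genes with a window of this length. The ETS letters stood in 25 (36.8%, against 9.93%) and the YY1 letters in 12 (17.6%, against 3.19%). GGGCGG, letters bound by SP1, stood in 34 of the 68, against 38.2%. Starts are those of RefSeq; that of Mrps18b lies upstream of its start in the GENCODE annotation, so its stretch after the RefSeq start lies just upstream of the gene position given later. No printed stretch holds the complete letters of more than 1 kind. The Mrps18b stretch after the start ends in only the opening letters of CTTCCGG, the ETS letters on the other strand. The print cuts them short. The window itself holds them in full, and Mrps18b is 1 of the 25 genes with the ETS letters. A match describes the sequence and shows no binding. Differences between genotypes are given here as a description. The median log2 difference was -0.049 with and 0.029 without the NRF1 letters, 0.027 and 0.023 for ETS, and -0.024 and 0.028 for YY1. Of the 8 genes with the NRF1 letters, Mrps18b alone passed the test described next, which 8.54% of all genes tested passed. Mrps18b was also the only gene to pass among the 25 with the ETS letters. Among the 12 with the YY1 letters Mrpl42 alone passed. Both genes also hold GGGCGG.

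Expression was given as FPKM, the number of fragments scaled to transcript length and to the library's total, so that levels can be compared between genes. Differences are KO minus WT on the log2(FPKM + 0.5) scale. They were tested with limma over the 12247 genes whose mean reached 0.5 FPKM, and a gene was called where its adjusted p (Benjamini-Hochberg) was under 0.05. Nothing in the labels ties each library to its own animal, and p-values therefore reflect only how these samples vary. Etnppl itself stood between 43.32 and 108.39 FPKM in WT and between 17.72 and 26.43 in KO (log2 difference -1.49, SE 0.23, limma adjusted p 0.005; exact two-sided permutation p = 0.0079, the smallest that 252 arrangements allow), so a reduced signal remained in the KO libraries. Steps between low values put the relative depth of the libraries at 0.902 to 1.063 in KO and 1.003 to 1.105 in WT. Kupffer cell markers were called lower in KO for 5 of 12 genes, among them Clec4f, where 4.56% of all genes tested were called lower. They summed to 207.2 to 299.1 FPKM in KO and 296.9 to 344.5 in WT. Marco alone of the 12 had a higher value in KO and was not called (log2 difference 0.75, limma adjusted p 0.19). Hepatocyte markers summed to 75600 to 83510 FPKM in KO and 71510 to 77720 in WT, with 2 of 10 called higher (Cps1 and Ahsg) and 1 lower (Trf). None of the 10 endothelial and 8 lymphocyte markers tested was called (2 and 3 were at an unadjusted p under 0.05). The stellate, cholangiocyte and erythroid lists had 1 called gene each. The part of cell composition in the results that follow was not tested.

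All 77 genes were expressed and passed the filter, with means over the 10 libraries from 5.081 to 96.09 FPKM, an 18.9-fold range around a median of 24.6. Mrpl52, a large-subunit protein found only in mitochondria, was the most abundant transcript, at 91.63 ± 4.668 FPKM (SD, n = 5) in WT and 100.6 ± 7.171 in KO. Mrpl17, which encodes a protein near the exit of the peptide tunnel, followed with 87.95 ± 8.015 and 88.45 ± 3.063. Next came Mrpl12, with 59.15 ± 3.394 in WT and 64.39 ± 3.870 in KO. Mrpl12 encodes the protein of the flexible stalk that recruits translation factors, is present in several copies per ribosome and also binds the mitochondrial RNA polymerase. None of these most abundant transcripts was called (limma adjusted p 0.19, 0.93 and 0.22; Mrpl52 had an unadjusted p under 0.05).

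The least abundant transcript encodes another stalk protein, Mrpl11, at 5.056 ± 0.1915 FPKM in WT and 5.106 ± 0.2179 in KO. The transcripts of stalk proteins thus lay at both ends of the range of levels. Mrpl19 stood at 5.516 ± 0.8794 in WT and 4.770 ± 0.8678 in KO, and Mrpl57 at 6.654 ± 0.2401 and 6.552 ± 0.4523. Neither was called (limma adjusted p 0.40 and 0.87), nor was Mrpl11 (0.92). Among WT libraries the coefficient of variation had a median of 7.87% over the 77 genes, against 12.1% over all genes tested.

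**Figure D1:**
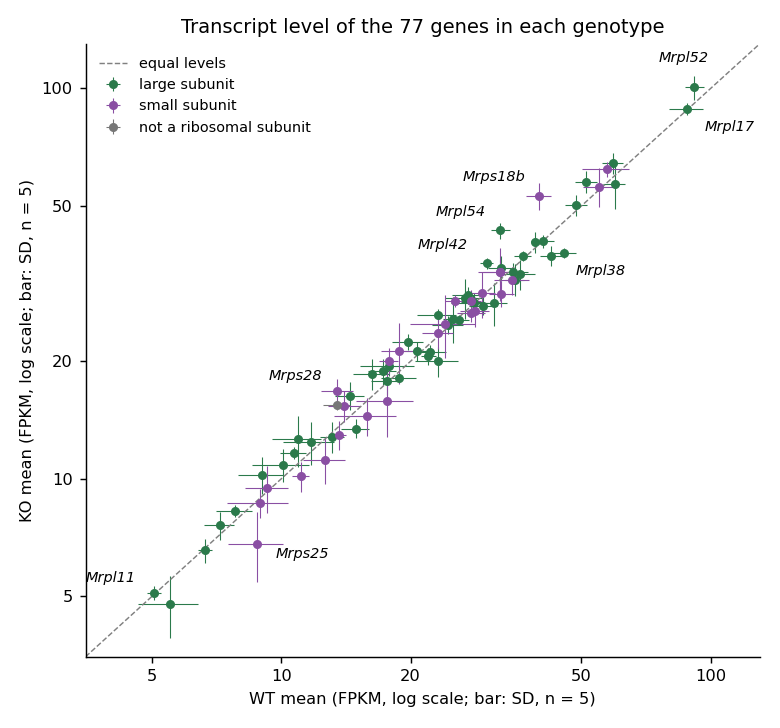
Mean FPKM in KO against mean FPKM in WT for the 77 genes, both on log scales, with bars of 1 SD (n = 5 per genotype) and colours for the subunit. The points lie close to the line of equal levels from about 5 to about 100 FPKM; Mrpl54, Mrps18b and Mrpl42 stand above it and Mrpl38 below it.

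Between genotypes, 4 of the 77 transcripts rose in KO and 1 fell, and 72 did not pass the test. This is 6.49% of the genes, against 8.54% of all genes tested; 5.19% were called higher, against 3.98%, and the background for lower calls was 4.56%. Which share was larger changed with the setting: with no filter on low genes the members' share was again 6.49%, against 3.15% of all genes. Without adjustment 17 genes (22.1%) had a p under 0.05, against 24.5% of all genes. Of these, 13 were higher in KO (16.9% of the members, against 11.0% of all genes) and 4 were lower (5.19%, against 13.6%). Groups did not overlap for 6 genes (7.79%, against 8.87%). The difference was above 0 for 48 genes and below 0 for 29, with a median of 0.027, against -0.02 over all genes. Sizes were small, from -0.36 to 0.41, with a median size of 0.103 against 0.124 over all genes. For 74 of the 77 genes the 95% confidence interval of the log2 difference lay inside ±0.5; the exceptions were Mrpl54, Mrps18b and Mrps25.

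Mrpl54 rose most clearly. It encodes a mitochondria-only protein at the base of the large-subunit stalk and is gene ENSMUSG00000034932 on chr10:81264713-81266934 (GRCm38, minus strand). WT libraries 1 to 5 gave 33.17, 30.01, 32.74, 34.34 and 31.62 FPKM, and KO libraries 1 to 5 gave 41.36, 42.03, 46.37, 42.21 and 44.38. Every KO library stood above every WT library, with a gap between 34.34 and 41.36. The means were 32.38 ± 1.642 and 43.27 ± 2.071 (SD, n = 5), which puts KO at 133.6% of WT (log2 difference 0.41, SE 0.053, limma adjusted p 0.0016). The call held when any single library was left out, with adjusted p from 0.0029 to 0.0073.

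Mrps18b rose by as much. It lies on chr17:35910379-35916389 (minus strand) and is ENSMUSG00000024436. FPKM values were 40.23, 38.84, 36.91, 39.04 and 43.97 in WT and 50.12, 53.13, 54.05, 59.55 and 48.64 in KO. The groups did not overlap, although the lowest KO library, KO 5, and the highest WT library, WT 5, came near each other. Means were 39.80 ± 2.618 and 53.10 ± 4.221 (log2 difference 0.41, SE 0.065, limma adjusted p 0.0046). Mrps18b is 1 of 3 relatives of bacterial S18 in mammals. The other two, named here as its relatives and not for their values, did not pass the test. Mrps18c, which holds the place of bacterial S18 itself in the small subunit, stood at 28.23 ± 2.186 in WT and 26.87 ± 2.365 in KO (log2 difference -0.07, limma adjusted p 0.59). Mrps18a, which despite its name belongs to the large subunit, stood at 27.24 ± 2.261 and 29.51 ± 1.414 (0.12, limma adjusted p 0.29).

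Mrpl42, a further mitochondria-only protein of the large subunit (chr10:95480805-95501940, minus strand), rose by a smaller step with little spread. WT libraries gave 29.5, 30.72, 28.65, 31.43 and 30.03 FPKM, and KO libraries gave 36.64, 35.82, 36.28, 35.57 and 33.86. All KO values lay above all WT values. The means were 30.07 ± 1.074 and 35.63 ± 1.074 (log2 difference 0.24, SE 0.046, limma adjusted p 0.01). With the replicate number as a block, the adjusted p was 0.053.

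Mrps28, the homologue of bacterial S1, which in bacteria binds messenger RNA, also rose (chr3:8802146-8923918, minus strand). In WT its values were 12.26, 13.67, 12.71, 13.74 and 15.23 FPKM, and in KO 16.68, 16.92, 15.22, 16.46 and 18.6. The groups touched, since WT 5 at 15.23 lay just above KO 3 at 15.22. The means were 13.52 ± 1.144 and 16.78 ± 1.212 (log2 difference 0.30, SE 0.072, limma adjusted p 0.026). This was the least stable of the 5 calls: it was lost without WT 1, KO 2, KO 4 or KO 5, with an adjusted p of up to 0.062. Mrps28 shares chromosome 3 with Etnppl, the targeted gene, but lies 121.7 Mb from it. The closest of the 5 members on that chromosome, Mrps21, lies 34.8 Mb away and was not called (54.88 ± 4.386 and 56.07 ± 6.325 FPKM).

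Mrpl38 was the only member called lower. Its protein has a fold like that of phosphatidylethanolamine-binding proteins and sits in the central protuberance of the large subunit, the knob that faces the small subunit. The gene lies on chr11:116131817-116138868 (minus strand). WT libraries gave 48.58, 44.26, 43.95, 42.66 and 48.81 FPKM, and KO libraries gave 36.66, 38.03, 38.96, 36.84 and 38.75. Every KO library stood below every WT library, and WT 1 and WT 5 stood highest. Means were 45.65 ± 2.843 and 37.85 ± 1.062, so KO was at 82.91% of WT (log2 difference -0.27, SE 0.052, limma adjusted p 0.012). It was called in each of the leave-one-out fits and the other settings tried, with adjusted p up to 0.046.

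**Figure D2:**
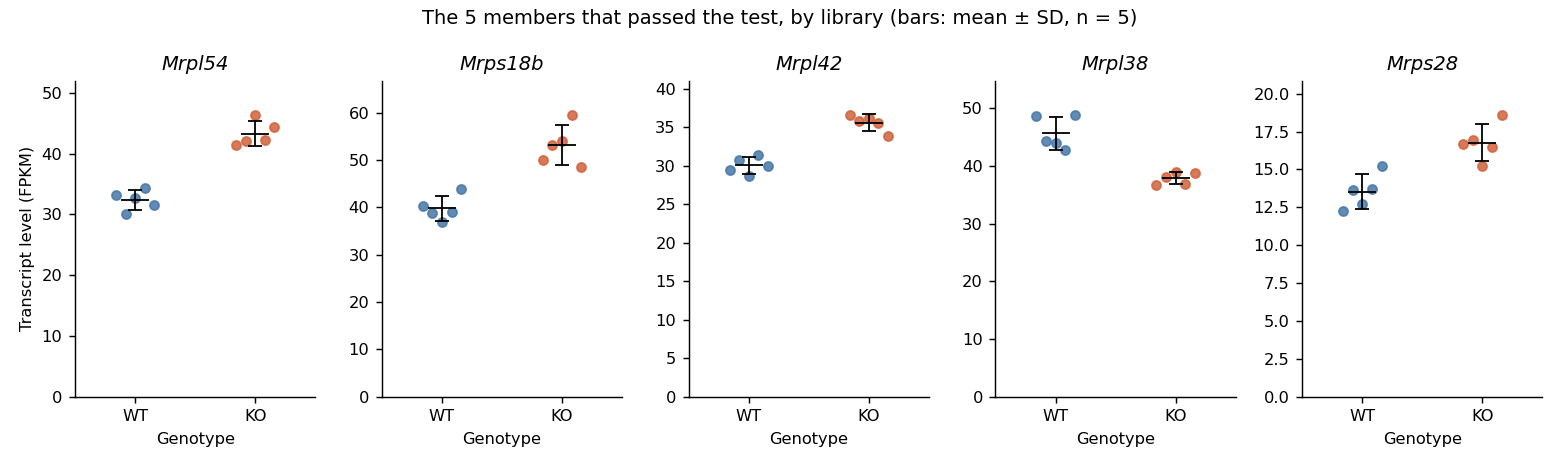
FPKM of the 5 called genes in each library (points), with the mean and SD (n = 5 per genotype) as bars and axes that start at 0. KO points stand above WT points for Mrpl54, Mrps18b and Mrpl42 and below them for Mrpl38, while Mrps28 has WT 5 level with KO 3.

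Just outside the threshold stood 3 transcripts with higher values in KO. Mrps2, the homologue of bacterial S2, gave 25.4, 26.1, 24.1, 24.14 and 27.02 FPKM in WT and 27.69, 28.7, 30.06, 28.99 and 27.66 in KO (log2 difference 0.17, limma adjusted p 0.057). Its groups did not overlap. Values of Mrps36, the dehydrogenase subunit, were 14.88, 13.77, 13.42, 12.11 and 13.26 in WT and 14.72, 15.36, 15.99, 15.65 and 15.62 in KO (0.19, limma adjusted p 0.07), and WT 1 lay above KO 1. For Mrpl13, the homologue of bacterial L13, WT gave 19.42, 20.15, 21.03, 20.97 and 17.1, and KO gave 23.87, 21.39, 23.12, 22.06 and 21.51 (0.18, limma adjusted p 0.11). Groups did not overlap for Mrpl13 either, but WT 5 stood below the other WT libraries. Rescaling the libraries by any of 3 methods brought Mrps2 and Mrps36 under the threshold, which made 6 higher members in place of 4.

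On the lower side, Mrpl14, part of the interface with the small subunit, came closest. It gave 44.72, 45.43, 42.41, 39.42 and 40.86 FPKM in WT and 35.56, 40.14, 34.79, 38.58 and 37.31 in KO (log2 difference -0.19, limma adjusted p 0.067). Only WT 4 lay below the highest KO library, KO 2. Mrps25, a small-subunit protein, had the lowest difference of all members but wide spread. Its values were 9.84, 7.61, 9.95, 7.23 and 9.36 in WT and 6.62, 7.75, 8.2, 4.61 and 6.95 in KO (-0.36, SE 0.144, limma adjusted p 0.15), with a 95% confidence interval from -0.67 to -0.04. KO 4 stood lowest and the groups overlapped. Mrpl22, which lines the peptide tunnel, gave 23.05, 22.34, 19.82, 23.49 and 27.24 in WT and 21.57, 20.68, 20.34, 20.65 and 16.96 in KO (-0.20, limma adjusted p 0.18), and the highest WT and the lowest KO value both came from the library numbered 5.

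By subunit, 2 large-subunit transcripts rose (Mrpl54 and Mrpl42) and 1 fell (Mrpl38) of 50, with a median difference of 0.027. In the small subunit 2 of 26 rose (Mrps18b and Mrps28) and none fell, with a median of 0.025. Called genes made 6.0% of the large and 7.69% of the small subunit, against 8.54% of all genes tested. At an unadjusted p under 0.05, 4 of the small subunit were higher and 1 lower (19.2%, against 24.5% of all genes). By descent, the naming system of ribosomal proteins lists 4 of the 5 called genes as specific to mitochondria, among them Mrps18b, although it is related to bacterial S18. In that class 3 of 30 rose and 1 fell (13.3%, against 8.54% of all genes tested), with a median of 0.087. Among the 46 proteins listed with a bacterial homologue 1 rose (2.17%, Mrps28), with a median of 0.02. With Mrps18a and Mrps18b counted as homologues, an alternative added after the data were seen, the shares were 10.7% of 28 and 4.17% of 48. The classes were not compared by a test. No large-subunit protein with a bacterial homologue was called (30 tested with limma, 5 at an unadjusted p under 0.05).

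**Figure D3:**
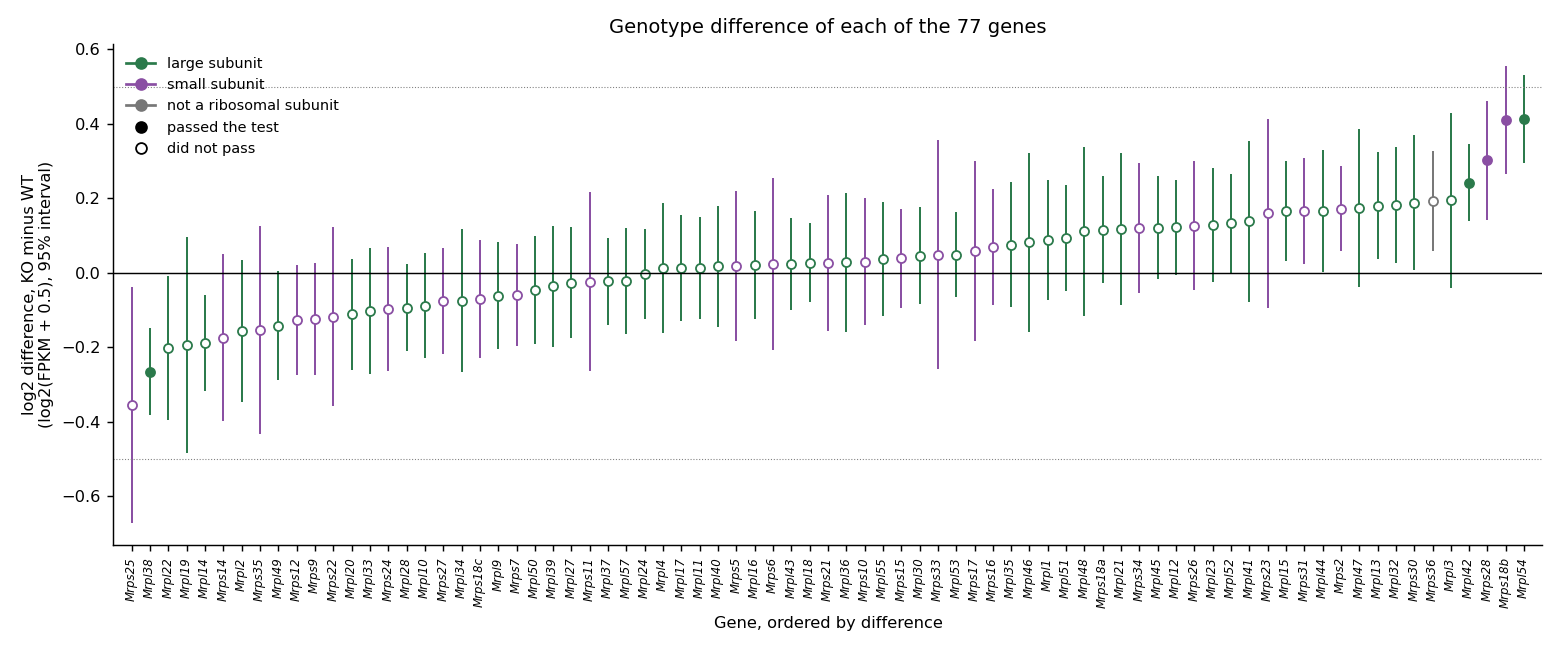
Log2 difference, KO minus WT, with its 95% confidence interval for each of the 77 genes, ordered by the difference and coloured by subunit, with dotted lines at ±0.5. The 5 called genes have filled points, at 0.41 for Mrpl54 and Mrps18b, 0.30 for Mrps28, 0.24 for Mrpl42 and -0.27 for Mrpl38.

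Of 7 functional regions of the ribosome, the stalk and the central protuberance held 1 called gene each and the other regions none. In the stalk, Mrpl54 rose while Mrpl10, Mrpl11, Mrpl12 and Mrpl53 were not called, and the median of the 5 was 0.049. In the central protuberance Mrpl38 fell, while Mrpl18, Mrpl40, Mrpl46 and Mrpl48 were not called; the median of these 5 was 0.027. Around the peptide tunnel and its exit, where the new chain meets the inner membrane, none of 8 was called with limma (Mrpl17, Mrpl22, Mrpl23, Mrpl24, Mrpl39, Mrpl44, Mrpl45 and Mrpl47; 2 at an unadjusted p under 0.05), and differences ran from -0.20 to 0.17. Mrpl45, which helps to hold the ribosome at the membrane, stood at 10.68 ± 0.7294 FPKM in WT and 11.65 ± 0.4307 in KO.

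The catalytic and decoding parts held no called gene in the limma fit, and none there had an unadjusted p under 0.05. Near the peptidyl transferase centre Mrpl2, Mrpl3, Mrpl16 and Mrpl27 had differences from -0.16 to 0.19. Along the path of the messenger RNA Mrps5, Mrps12 and Mrps24 ran from -0.13 to 0.02; Mrps12, a protein of the decoding site, stood at 32.58 ± 2.184 FPKM in WT and 29.82 ± 2.273 in KO. In the head of the small subunit Mrps7, Mrps9, Mrps10 and Mrps14 ran from -0.17 to 0.03. For 7 proteins of its body and platform (Mrps6, Mrps11, Mrps15, Mrps16, Mrps17, Mrps18c and Mrps21) the differences stayed between -0.07 and 0.07.

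Library by library, the 77 transcripts summed to 2046.8, 2081.5, 1988.1, 1990.9 and 2095.5 FPKM in WT 1 to 5 and to 2105.4, 2081.0, 2147.8, 2111.7 and 2043.9 in KO 1 to 5. The sums overlapped: KO 5 lay below WT 1, WT 2 and WT 5. Means were 2041 ± 49.9 and 2098 ± 38.5 (SD, n = 5), and no test was made of a sum over genes chosen with results known. As a share of each library's total FPKM, the members made 2.69 to 3.02 per mille in WT and 2.82 to 2.94 per mille in KO. The number of genes above their own mean over all 10 libraries was 39, 35, 23, 30 and 46 in WT and 45, 43, 48, 53 and 29 in KO. WT 3 had the fewest, and KO 5 the fewest among KO libraries. Large-subunit transcripts summed to 1396 ± 29.3 FPKM in WT and 1429 ± 23.9 in KO, and small-subunit transcripts to 631.5 ± 20.9 and 653.2 ± 23.4, with KO 5 at 612.25 and the other KO libraries at 658.6 to 671.33. The ratio of the subunits was 2.21 ± 0.0337 in WT and 2.19 ± 0.078 in KO.

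**Figure D4:**
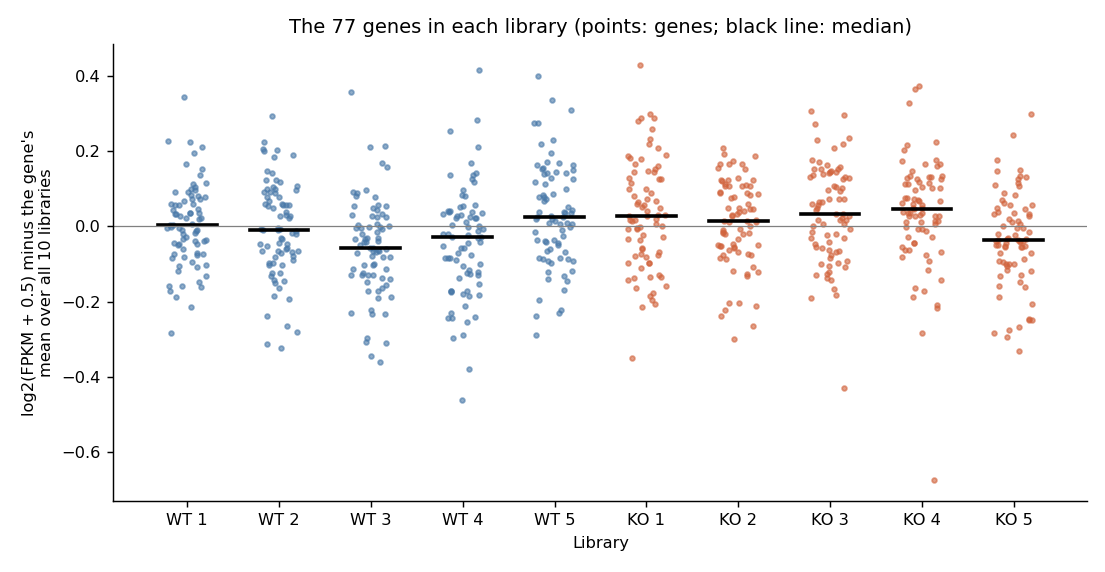
Log2(FPKM + 0.5) of each of the 77 genes minus its mean over all 10 libraries, by library (points), with the median as a black line. Medians run from -0.057 (WT 3) to 0.025 (WT 5) in WT and from -0.037 (KO 5) to 0.046 (KO 4) in KO, and the genotypes overlap.

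Many of these genes share their start region with another gene, an arrangement common among genes of mitochondrial proteins. In the GENCODE M21 annotation 33 of the 77 had a protein-coding gene starting within 1000 bases on the opposite strand. None of the 29 tested partners passed the limma test (5 with an unadjusted p under 0.05), and partner and member had the same sign in 13 of 29 pairs. Mrpl46 and Mrps11, both members, are partners of each other, so their pair, with opposite signs, is counted from each side. The start of Mrpl54 lies 26 bases from that of Apba3, which stood at 25.6 ± 1.92 FPKM in WT and 25.2 ± 3.71 in KO (log2 difference -0.03, limma adjusted p 0.88). Mrps18b lies 45 bases from Ppp1r10, at 13.9 ± 5.52 and 10.5 ± 2.4 (-0.31, limma adjusted p 0.53). Neither partner rose with its Mrp gene.

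Reads of overlapping genes cannot be told apart without strand, and whether the counting used strand is not stated in the labels. Of the 77 genes, 41 overlap another gene and 20 overlap one whose mean reached 0.5 FPKM. Mrps18b overlaps the antisense gene Gm16279, which did not exceed 0.21 FPKM. Mrps28 holds the pseudogenes Gm15467 and Gm15466, listed at 0 in every library. Mrpl14 and Mrps25 overlap Tmem63b and Nr2c2, which were not called. Among the overlapping genes 2 were called lower, and are named for that: Rbks, over Mrpl33 (log2 difference -0.48, limma adjusted p 0.007), and Syvn1, over Mrpl49 (-0.47, limma adjusted p 0.011). Mrpl33 and Mrpl49 had differences of -0.10 and -0.14 and were not called (limma adjusted p 0.45 and 0.21); the part of the overlap in these values was not tested.

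Some proteins of the ribosome carry other names. Ict1, a large-subunit protein also known as Mrpl58 that can release stalled chains, stood at 32.1 ± 1.1 FPKM in WT and 32.2 ± 1.58 in KO (log2 difference 0.003, limma adjusted p 0.978). It was named after its values were seen. Of the 5 other proteins with such names (Dap3, Ptcd3, Chchd1, Aurkaip1 and Gadd45gip1) none passed the limma test and 1 had an unadjusted p under 0.05. That was Ptcd3, a small-subunit protein with RNA-binding repeats, at 18.37 ± 1.039 and 21.06 ± 1.744 (0.19, limma adjusted p 0.10).

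The ribosomal RNAs were also named after their values were seen. The small-subunit RNA, mt-Rnr1, gave 987.42, 932.46, 1273.09, 1084.77 and 859.22 FPKM in WT and 598.73, 688.3, 716.81, 808.92 and 689.62 in KO. Every KO library stood below every WT library (log2 difference -0.55, SE 0.11, limma adjusted p 0.011). It was called lower. The large-subunit RNA, mt-Rnr2, was not called and stood at 1200 ± 214 in WT and 1130 ± 183 in KO (-0.09, limma adjusted p 0.73), with overlap. The libraries were made from poly-A RNA, in which ribosomal RNA is only partly kept, so these values need not follow the amount of either RNA.

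Around the ribosome, 26 genes for its assembly and for the modification of its RNA had 1 called member, where 8.54% of all genes tested were called. Ddx28, an RNA helicase of large-subunit assembly, gave 8.5, 7.87, 7.27, 9.27 and 8.9 FPKM in WT and 11.12, 11.13, 11.93, 10.73 and 10.11 in KO. The groups did not overlap (log2 difference 0.38, SE 0.075, limma adjusted p 0.012, and 0.058 with the replicate block). Trub2, Mpv17l2 and Dhx30, which act in the same process, had differences of 0.28, 0.16 and 0.17 and were not called (limma adjusted p 0.086, 0.22 and 0.29). The list's median was 0.05.

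Of 19 translation factors and related genes tested, none passed the limma test, and their median was 0.06. An unadjusted p under 0.05 was found for 5 of them, against 24.5% of all genes. The nearest was Lrpprc, which binds and stabilises mitochondrial messenger RNA, at 28.44 ± 1.97 FPKM in WT and 32.59 ± 1.532 in KO without overlap (log2 difference 0.19, limma adjusted p 0.064). Mtrf1l, a release factor, Qrsl1, which takes part in charging glutaminyl-tRNA, and Mrrf, the recycling factor, had differences of 0.34, 0.29 and 0.16 (limma adjusted p 0.084, 0.14 and 0.15). The other gene at an unadjusted p under 0.05 was Gatc, named here after its values were seen. It had a lower value in KO (-0.13, limma adjusted p 0.17).

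Among mitochondrial aminoacyl-tRNA synthetases, 16 were tested and their median difference was -0.06. Cars2, Vars2 and Fars2, which charge the tRNAs for cysteine, valine and phenylalanine, had differences of -0.24, -0.26 and -0.13 and were not called (limma adjusted p 0.11, 0.24 and 0.26).

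Genes that copy or transcribe mitochondrial DNA or process its RNA included no called member of 14 in the limma fit (2 at an unadjusted p under 0.05). The nearest was Polg, the DNA polymerase, at 13.28 ± 1.45 FPKM in WT and 11.03 ± 0.8969 in KO (log2 difference -0.26, limma adjusted p 0.077). Mgme1, a nuclease, and Mterf1a and Tefm, factors that terminate and extend transcripts, had differences of -0.29, -0.24 and 0.25 (limma adjusted p 0.15, 0.21 and 0.22).

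Of 9 transcription factors and coactivators known for regulating such genes, 2 rose, where 3.98% of all genes tested were called higher. Esrra, the oestrogen-related receptor alpha, stood at 11.79 ± 1.019 FPKM in WT and 15.2 ± 1.252 in KO without overlap (log2 difference 0.35, limma adjusted p 0.017, and 0.06 with the replicate block). Gabpb1, a subunit of the ETS factor GABP, stood at 5.34 ± 0.7536 and 7.082 ± 0.6685 (0.38, limma adjusted p 0.036). The Gabpb1 call was lost without WT 1, WT 4, WT 5, KO 2, KO 3, KO 4 or KO 5, with adjusted p up to 0.082. It was also lost with no filter on low genes. The coactivators Pprc1 and Ppargc1a had differences of 0.48 and 0.80 but were not called (limma adjusted p 0.053 and 0.29). Nrf1, Yy1 and Gabpa, named here for the promoter letters above, had differences of 0.08, 0.05 and 0.02. None of them was called (limma adjusted p 0.71, 0.71 and 0.85). Ppargc1b alone in the list had a lower value in KO (-0.205, limma adjusted p 0.57).

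Of 11 chaperones and proteases of the mitochondrial matrix and inner membrane, 2 rose and none fell, with a median of 0.11. Of all genes tested, 3.98% were called higher. An unadjusted p under 0.05 was found for 7 of the 11, against 24.5% of all genes. Among these 7, Lonp1 and Trap1 had lower values in KO (log2 differences -0.16 and -0.13, both limma adjusted p 0.11). They are a protease and a chaperone, named here after their values were seen. Hspa9, the matrix Hsp70, gave 193.6, 175.0, 174.5, 190.8 and 191.8 FPKM in WT and 216.0, 221.1, 207.8, 230.1 and 226.3 in KO. The groups did not overlap (log2 difference 0.25, SE 0.05, limma adjusted p 0.013). Afg3l2, a subunit of the inner-membrane protease that matures the Mrpl32 protein, stood at 28.54 ± 1.201 and 33.19 ± 1.541 (0.21, limma adjusted p 0.027). That call was lost without WT 1, WT 2, KO 1, KO 2, KO 4 or KO 5, and with the replicate block (adjusted p 0.064). Mrpl32 itself stood at 23.14 ± 2.403 and 26.22 ± 1.052 and was not called (0.18, limma adjusted p 0.14). Hspe1 and Yme1l1 had differences of 0.29 and 0.15 (limma adjusted p 0.069 and 0.094).

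The messenger RNAs that the ribosome translates were only partly measured. Of 13, mt-Atp6, mt-Atp8 and mt-Co2 were listed at 0 in every library and mt-Co3 did not pass the filter. Of the 9 tested, 2 rose, where 3.98% of all genes tested were called higher. Both encode subunits of complex I, as do all the tested genes except mt-Co1 and mt-Cytb. mt-Nd1 stood at 9348 ± 1465 FPKM in WT and 12080 ± 868.3 in KO (log2 difference 0.38, limma adjusted p 0.037). mt-Nd6 stood at 60.62 ± 4.675 and 85.74 ± 19.14 (0.47, limma adjusted p 0.048). Both groups overlapped, and leaving out any of 8 libraries for mt-Nd1 (all but WT 3 and KO 5) or any of 9 for mt-Nd6 (all but KO 1) ended the call, with adjusted p up to 0.084 and 0.11. The replicate block also ended the call of mt-Nd1 (adjusted p 0.053), and having no filter on low genes ended both calls. mt-Nd6 stood far below the other tested messenger RNAs. The next lowest, mt-Nd3, was at 4439 FPKM in WT and 4783 in KO. The part of poly-A selection and of strand in the values of mt-Nd6 was not tested. mt-Co1 and mt-Nd5 had differences of 0.24 and -0.17 (limma adjusted p 0.19 and 0.35). Differences were above 0 for 7 of the 9, and mt-Nd2, another complex I gene, was at -0.11 (limma adjusted p 0.42).

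**Figure D5:**
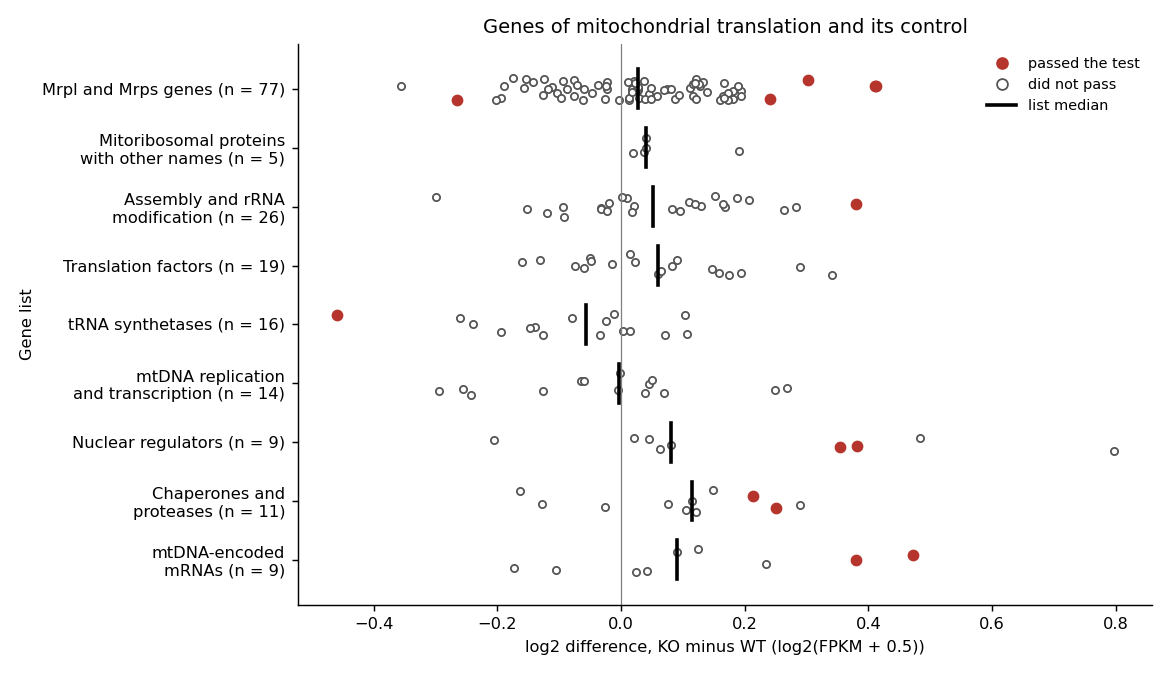
Log2 differences, KO minus WT, of the 77 genes and of the tested genes in each of 8 related lists (points), with the median of each list as a line and called genes in colour. Medians run from -0.06 for the synthetases to 0.11 for the chaperones and proteases, beside 0.027 for the ribosomal genes.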

How the data were processed

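The authors deposited 1 table of FPKM values per gene and library, per the file headers, for 5 WT and 5 KO libraries of poly-A RNA. The submitters' processing notes name STAR, RSEM, R 4.0.2, DESeq, DESeq2 and the mm10 build, without saying which step made the table. Count models do not suit FPKM and were not used. The sequencing depth is unknown beyond the relative depth read from steps of low values. On log2(FPKM + 0.5) values, a two-sided test of genotype was made in limma 3.58.1 (R 4.3.3; no covariates; eBayes with its trend and robust settings), with Benjamini-Hochberg adjustment over the 12247 genes whose mean reached 0.5 FPKM. The fit was tested on simulated data. Figures were drawn with matplotlib 3.10.9. The members, the lists and the tests were chosen with earlier results of these data known. Of 181 list genes 180 were in the table, some under older symbols; Mtrfr was not matched. Positions and lengths came from GENCODE M21 on GRCm38, the assembly of mm10. Genes were named by rule: every called member, the 3 highest and 3 lowest levels, the 3 nearest to the threshold on each side of 0, and in each list the 4 smallest p and any called gene where 6 or fewer were called. A result that this rule gives is not reported here. Other genes named were picked for their role or place, or as the text says. Alternatives were 2 other pseudocounts, 2 other filters, 3 scalings, a fit without the robust option, library weights, a replicate block, removal of a trend on transcript length, and leaving out each library.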

Additional observations from a re-analysis of the deposited data

Results flagged for a closer look

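Members, their sums and the other named genes were examined in each genotype for a library that stood far from the other 4. This gave 14 cases in 236 groups of 5, where chance gives about 1 in 20, or 11.8. None of the cases concerns a called gene. In WT 4, Mrpl41, a large-subunit protein, was at 13.34 FPKM (the other WT libraries 18.0 to 19.76), Mrpl40, of the central protuberance, at 15.17 (others 17.72 to 18.67) and Mrps35, of the small subunit, at 22.21 (others 15.48 to 17.26). WT 5 had Mrpl45, a protein of the tunnel exit, at 9.42 (others 10.76 to 11.24), and WT 2 had Mrpl55 at 24.12 (others 19.29 to 20.16). Among KO libraries, Mrpl15 was at 51.13 in KO 2 (others 58.86 to 59.52), Mrpl3 at 15.9 in KO 1 (others 11.3 to 12.21) and Mrpl41 at 17.5 in KO 4 (others 19.76 to 20.28). KO 5 held Mrpl22 at 16.96 (others 20.34 to 21.57) and Mrpl47 at 8.35 (others 10.27 to 10.99), both of the peptide tunnel exit region. In that library the small-subunit members also summed to 612.25 FPKM (others 658.6 to 671.33). Outside the members, Polg was at 15.85 in WT 2 (others 12.36 to 12.93), Mgme1 at 2.75 in KO 1 (others 1.91 to 2.15) and Hspe1 at 111.12 in WT 3 (others 137.65 to 144.55).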

How the results depend on the processing

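The number of members that rose was 4, between 3 (replicate block) and 6 (each of 3 scalings), and 3 to 4 when a library was left out; Mrpl38 alone fell under every setting. Over all genes, 488 rose and 558 fell, against 633 and 476 with the length trend removed (5 members higher), 230 and 321 with the replicate block, and 294 and 370 with no filter. The members' share of calls was above that of all genes with no filter (6.49% against 3.15%) and the replicate block (5.19% against 4.5%). So it was with each scaling (9.09% against 8.7% to 8.91%) and in some fits without a library (such as 6.49% against 4.84% without WT 5). It was below, as in the main fit, with the filter at a mean of 5 FPKM (7.79% against 13.2%) and with the length trend removed (7.79% against 9.08%). Large-subunit members that rose were 2, but 1 with the replicate block. Small-subunit members that rose were 2, and 1 to 2 when a library was left out (1 without WT 1, KO 2, KO 4 or KO 5, which ended the call of Mrps28). Of the 8 calls in the related lists, the count was 5 with no filter, 4 with the replicate block, and 4 to 8 when a library was left out, but 9 with median-of-ratios scaling, 10 with upper-quartile scaling, and 12 with quantile normalization or with the length trend removed. The cause was not tested. The replicate number does not pair the libraries: same-numbered deviations correlated at 0.091, 0.158, -0.207, 0.008 and 0.208, and only number 5 correlated best with its own; the block changed the call of Mrpl42 and no other member. The median difference of the members was 0.015 to 0.04 when a library was left out. No called difference reversed in sign. Differences near 0 did for uncalled genes: when a library was left out, Mrpl11 ran from -0.01 to 0.03, Mrpl17 from -0.03 to 0.05, Gadd45gip1 from -0.01 to 0.08 and mt-Rnr2 from -0.17 to 0.01. With the length trend removed, Mrpl57 was at 0.01. With standard errors of 0.046 to 0.144 and 5 libraries per genotype, differences of the size of those called, or smaller, could be missed. Mrps25, for example, was at -0.36 and was not called.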
